A study of Gossypium hirsutum with 6 samples.

Results

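The LNK genes of upland cotton (Gossypium hirsutum) are described here in leaf RNA. Members are the rows of the deposited gene table whose protein description contains "protein LNK" and whose mean was at least 1 FPKM in the transgenic or in the wild-type libraries. FPKM counts sequenced fragments relative to the length of the transcript and the size of the library. This gave 9 genes of 72761 listed and of 43837 that passed the same level, and no row with this description fell below it. The members were thus chosen by their description and by the group means of these libraries. The description named 6 as LNK1-like, 2 as LNK2-like and 1 as LNK3-like.

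The data are 3 replicates of leaf from lines labelled transgenic, whose titles carry the name FPF1, against 3 replicates of leaf labelled wild type, whose titles read W10. FPF1, flowering promoting factor 1, is studied here in shade avoidance, the elongation growth of plants that sense neighbours. The labels do not say whether these lines carry more or less FPF1, name no promoter or line number, and give no plant age or time of day at collection. Nor do they say whether replicates were separate plants, so a p-value covers the spread among these libraries, part of which may be technical.

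In Arabidopsis, LNK proteins (night light-inducible and clock-regulated) are coactivators without a DNA-binding domain of their own. MYB-like factors of the REVEILLE group bring them to the promoters of afternoon and evening clock genes, among them PRR5. Their own transcripts cycle with a peak in the morning and are induced by light given at night. Plants without LNK1 and LNK2 have a long clock period, flower late and have long hypocotyls.

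As a check of the labels, the gene like flowering-promoting factor 1 with the highest transgenic mean was taken. This gene, GH_D02G0524, had 133, 199 and 195 FPKM in transgenic leaf, against 0, 0 and 0.467 FPKM in the wild type. Its high transgenic level is part of the choice, while its wild-type level is not. Between 52037 and 53560 genes were above 0 in a library. Relative depth, read from the smallest values, was 0.990 to 1.14 in the transgenic libraries and 1.19 to 1.28 in the wild type, with transgenic 1 set to 1. The number of reads behind each value is unknown. Leaf markers were abundant. The summed level of the RuBisCO small chain was 736 to 1489 FPKM in the transgenic and 553 to 756 FPKM in the wild-type libraries. RuBisCO activase summed to 344 to 407 FPKM in transgenic and 205 to 282 FPKM in wild-type leaf. Chlorophyll a-b binding proteins summed to 1386 to 1660 FPKM in transgenic and 3175 to 4563 FPKM in wild-type leaf. Their part in the results on LNK genes was not tested.

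All 9 LNK genes were lower in the transgenic leaves, at 8.65% to 43.0% of the wild-type mean, and in none of them did the groups overlap. Summed over the 9 genes, LNK transcript stood at 25.1, 25.6 and 22.95 FPKM in transgenic leaf, against 85.2, 90.2 and 79.6 FPKM in the wild type. The LNK2-like genes had the lowest remaining level relative to the wild type, and the LNK1-like gene of chromosome A12 had the highest mean in both groups. Non-overlap with lower transgenic values occurred in 9.51% of the 43837 genes tested. The members were chosen with this difference already known, so the 9 of 9 is a description. In whole leaf, fewer cells that express a gene and less RNA per cell cannot be told apart.

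**Figure D1:**
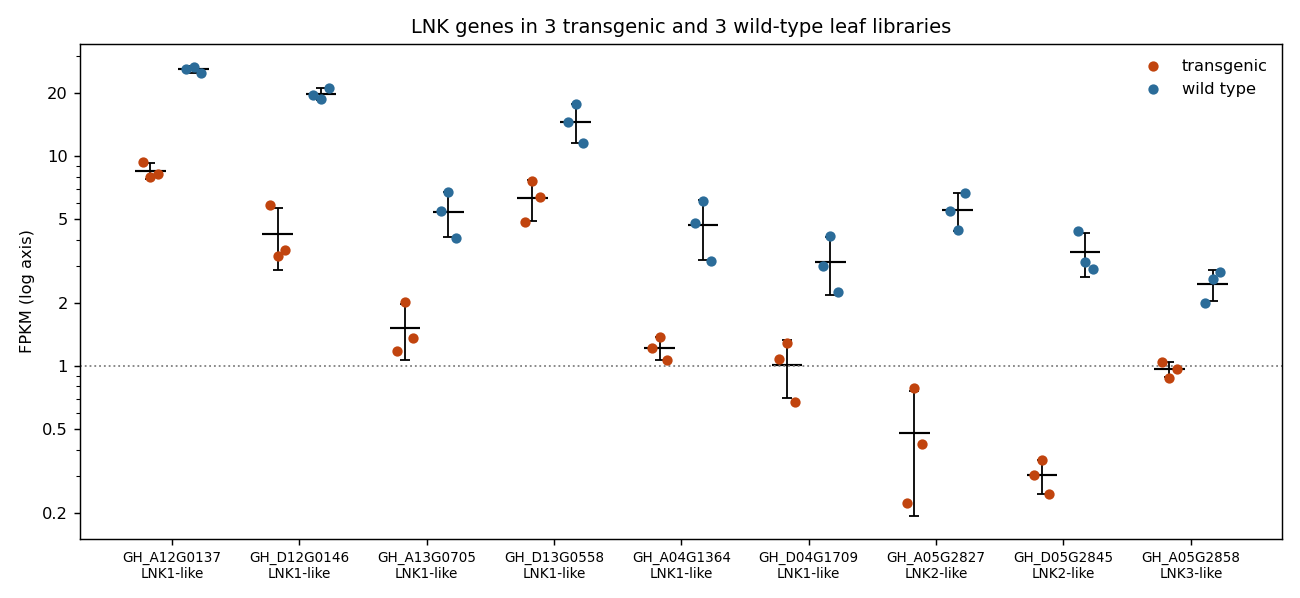
FPKM of each LNK gene on a log axis, 3 transgenic libraries left of 3 wild-type libraries, with the group mean as a horizontal bar and 1 SD as whiskers. The dotted line marks 1 FPKM, under which the transgenic mean of both LNK2-like genes and of the LNK3-like gene lies. The groups overlap in none of the 9 genes.

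Differences were tested with limma on log2(FPKM + 1) over the whole table, with Benjamini-Hochberg adjustment over 43837 genes, and called means an adjusted p under 0.05. In this fit 780 genes, or 1.78%, were called lower and 1720, or 3.92%, higher in the transgenic libraries. Rises made up 68.8% of the calls on the deposited scale. Rescaling each library by its upper quartile left them at 57.3% of 2262 calls, and rescaling by the median of ratios at 53.8% of 2219. All 9 LNK genes were called lower, with a median log2 fold change of -1.34 beside 0.080 over all genes tested. In 6 members, all LNK1-like, both group means were at least 1 FPKM, so the level rule did not depend on the direction of the difference. The LNK2-like and LNK3-like genes passed through the wild type alone. Those 3 are given below with the adjusted p of a fit that kept genes by their mean over all 6 libraries, which takes no account of group. That fit tested 42533 genes and called 1.79% of them lower. The transgenic means of those 3 genes are under 1 FPKM, so they pass this filter too through their wild-type levels. Their adjusted p is therefore a description.

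LNK1 and LNK2 are the members best studied in Arabidopsis, where they act redundantly in the clock. The pair of LNK1-like genes on chromosomes A12 and D12 made up 44.0% to 60.6% of the summed LNK level in the transgenic libraries and 50.2% to 58.0% in the wild type. GH_A12G0137 stood at 9.36, 7.93 and 8.21 FPKM in transgenic leaf, against 26.03, 26.65 and 24.92 FPKM in the wild type. The lowest wild-type library was 2.66 times the highest transgenic library, and the wild-type coefficient of variation was 3.38%. The difference was -1.502 on the log2 scale (standard error 0.102, limma adjusted p = 0.00140). GH_D12G0146 stood at 5.87, 3.33 and 3.58 FPKM in transgenic leaf, against 19.5, 18.6 and 21.2 FPKM in the wild type. Transgenic 1 was the highest of its group, and the gap to the wild type was 3.18-fold. On the log2 scale it differed by -2.01 (standard error 0.186, limma adjusted p = 0.00430). Both calls held without any 1 library.

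The LNK1-like genes on chromosomes A13 and D13 differed in level, with the D13 gene the higher. GH_D13G0558 had 4.85, 7.60 and 6.41 FPKM in the transgenic libraries, against 14.6, 17.7 and 11.6 FPKM in the wild type. Here the groups came closest of all members, with the lowest wild-type library at 1.52 times the highest transgenic library. The log2 fold change was -1.10 (standard error 0.196, limma adjusted p = 0.0260). GH_A13G0705 had 1.18, 2.03 and 1.36 FPKM in the transgenic libraries, against 5.46, 6.72 and 4.10 FPKM in the wild type. Its mean was thus 28.04% of the wild-type mean, beside 43.0% for the D13 gene. The log2 fold change was -1.34 (standard error 0.213, limma adjusted p = 0.0182).

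On chromosomes A04 and D04 the LNK1-like genes were expressed at lower levels. GH_A04G1364 stood at 1.22, 1.38 and 1.07 FPKM in transgenic leaf and at 4.83, 6.13 and 3.15 FPKM in wild-type leaf. The transgenic libraries lay close together and the wild-type libraries were spread, with coefficients of variation of 12.7% and 31.7%. The log2 fold change was -1.33 (standard error 0.222, limma adjusted p = 0.0217). GH_D04G1709 stood at 1.08, 1.29 and 0.676 FPKM in transgenic leaf and at 2.99, 4.18 and 2.26 FPKM in wild-type leaf. Its transgenic mean, 1.01 FPKM, lay just inside the level of 1 FPKM, and its log2 fold change was -1.03 (standard error 0.229, limma adjusted p = 0.0474).

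The calls of these 4 genes depended on single libraries. Each was lost without transgenic 2, transgenic 3 or wild type 1, where the adjusted p was 0.0586 to 0.151. Without transgenic 1 the A04, D13 and D04 genes were lost too, and without wild type 2 the D04 gene, which was also lost with no filter on low values (adjusted p = 0.0658). The direction was the same in every fit, which omission of a library could not change, since the groups did not overlap.

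The LNK2-like genes on chromosomes A05 and D05 had low levels in transgenic leaf. GH_A05G2827 had 0.224, 0.788 and 0.426 FPKM in the transgenic libraries, against 5.47, 4.45 and 6.69 FPKM in the wild type. The lowest wild-type library was 5.65 times the highest transgenic library. GH_D05G2845 had 0.304, 0.356 and 0.245 FPKM in the transgenic libraries, against 4.41, 3.14 and 2.89 FPKM in the wild type. This was the widest gap of the 9 members, 8.14-fold. The mean level was 11.6-fold lower for the A05 gene and 11.5-fold lower for the D05 gene, the largest ratios among the members.

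On the log2(FPKM + 1) scale the LNK2-like changes were smaller than these ratios, -2.15 for GH_A05G2827 (standard error 0.215) and -1.77 for GH_D05G2845 (standard error 0.194). With a pseudocount of 0.1 they were -3.39 and -3.14, since a pseudocount of 1 is larger than the transgenic levels. In the fit with the filter over all libraries the adjusted p was 0.00532 for the A05 gene and 0.00675 for the D05 gene. In fits with that filter and 1 library left out, added after the values were seen, both were called in 6 of 6, with adjusted p of 0.00738 to 0.0389 and 0.0131 to 0.0449.

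The only LNK3-like gene, GH_A05G2858, lies on chromosome A05 like one of the LNK2-like genes. In Arabidopsis LNK3 is a shorter and less studied relative of LNK1 and LNK2. It stood at 1.04, 0.882 and 0.968 FPKM in transgenic leaf, against 1.99, 2.59 and 2.80 FPKM in the wild type. The groups did not overlap, and the transgenic mean was 39.2% of the wild type. On the log2(FPKM + 1) scale its change was -0.81, the smallest of the members (standard error 0.174). With a pseudocount of 0.1 it was -1.26, larger than the -1.21 of GH_D13G0558. At the pseudocount of 1 the adjusted p was 0.0451 in limma with the filter over all libraries. With that filter the call was lost in each of the 6 fits that left out 1 library, with adjusted p of 0.0795 to 0.156.

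In the authors' deposited table, which rests on the same libraries, all 9 genes have a q-value under 0.05. Its log2 ratio of means ran from -3.53 for GH_A05G2827 to -1.22 for GH_D13G0558, and the q-value nearest to the threshold was 0.0244, for GH_A05G2858. The share of all genes with a deposited q-value under 0.05 was not counted, so these values are a description.

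Reads of such close relatives may be shared between identifiers, so the FPKM of members with the same name was also summed before the fit. The LNK1-like sum was 23.6, 23.6 and 21.3 FPKM in the transgenic libraries and 73.3, 80.1 and 67.2 FPKM in the wild type. Its log2 fold change was -1.64 (standard error 0.105, limma adjusted p = 0.00104). The LNK2-like sum was 0.527, 1.14 and 0.671 FPKM in the transgenic libraries and 9.88, 7.59 and 9.59 FPKM in the wild type. The mean of this sum too reached 1 FPKM in the wild type alone, so its adjusted p is a description as well. With the filter over all libraries its log2 fold change was -2.50 (standard error 0.188, limma adjusted p = 0.00179).

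Shares within a library do not depend on how libraries were scaled. The LNK2-like genes made up 2.10%, 4.47% and 2.92% of the summed LNK level in the transgenic libraries and 11.6%, 8.41% and 12.04% in the wild type. The groups did not overlap, and an exact two-sided permutation test gave p = 0.10, the smallest that 3 against 3 allows (adjusted p = 0.15 over 3 shares). LNK1-like genes took 92.9% ± 0.837 of the sum in transgenic and 86.4% ± 2.16 in wild-type leaf (SD, n = 3 each, exact permutation p = 0.10, adjusted p = 0.15). The LNK3-like share, 3.94% ± 0.425 in transgenic and 2.91% ± 0.595 in wild-type leaf, overlapped between groups (n = 3 each, exact permutation p = 0.20, adjusted p = 0.20). The LNK2-like and LNK3-like genes passed the level rule through the wild type alone, and the LNK1-like share is what they leave. The p-values of all 3 shares are therefore descriptions.

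**Figure D2:**
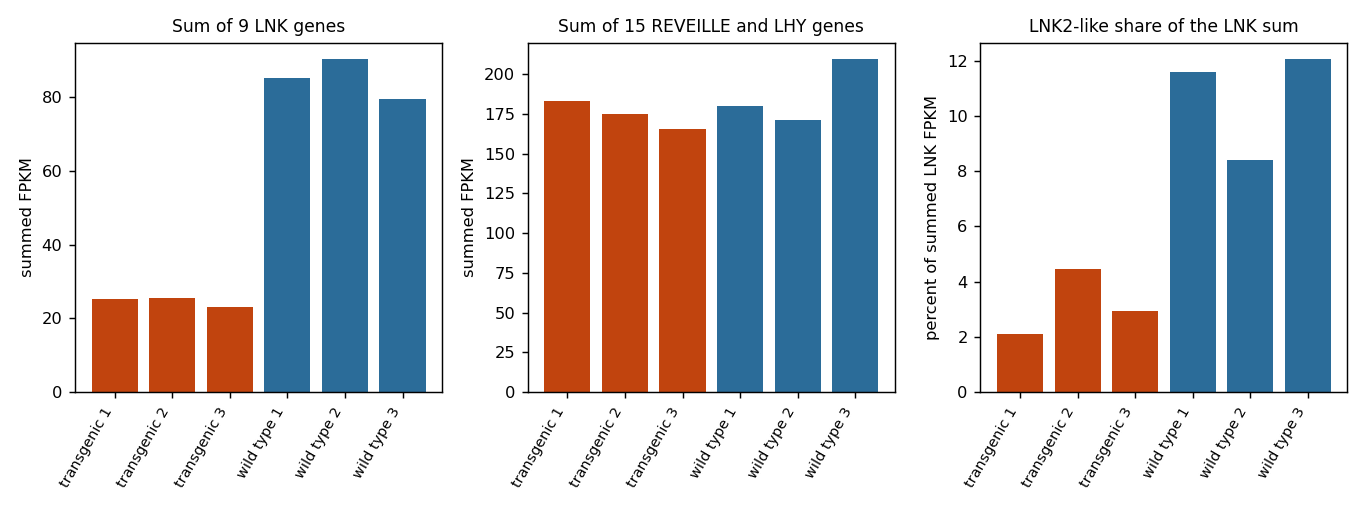
Bars give the summed FPKM of the 9 LNK genes (left), the summed FPKM of 15 REVEILLE and LHY genes (centre) and the LNK2-like percentage of the LNK sum (right) in each library, transgenic in orange and wild type in blue. The LNK sum is 22.95 to 25.6 in transgenic and 79.6 to 90.2 FPKM in wild-type libraries, while the ranges of the REVEILLE and LHY sum overlap.

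Upland cotton carries an A and a D subgenome, and 8 of the 9 members fall into 4 pairs with the same name and chromosome number on A and D. Genes of the A subgenome took 51.8%, 50.9% and 52.4% of the summed LNK level in the transgenic libraries and 51.4%, 51.6% and 52.3% in the wild type. The difference of means was -0.0530 percentage points (exact two-sided permutation p = 1.0, n = 3 each). Its sign turned without transgenic 2 (0.374) or without wild type 3 (0.238).

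The ratio within each pair was compared next. The LNK1-like pair of chromosome 12 had an A to D ratio of 1.595, 2.38 and 2.29 in transgenic leaf, against 1.34, 1.43 and 1.17 in wild-type leaf. The pair of chromosome 13 had ratios of 0.243, 0.267 and 0.212 in transgenic leaf, against 0.375, 0.379 and 0.354 in wild-type leaf. The first pair thus leaned further to A and the second further to D in the transgenic libraries, and in neither did the groups overlap. Each had an exact permutation p of 0.10, the floor of the design (adjusted p = 0.20 over 4 pairs, n = 3 each). These pairwise ratios were chosen after the values had been seen.

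The other pairs overlapped between groups. For chromosome 04 the ratio was 1.13, 1.07 and 1.58 in transgenic and 1.61, 1.47 and 1.39 in wild-type leaf (exact permutation p = 0.30, adjusted p = 0.40, n = 3 each). For the LNK2-like pair of chromosome 05 it was 0.736, 2.22 and 1.74 in transgenic and 1.24, 1.42 and 2.31 in wild-type leaf (exact permutation p = 0.80, adjusted p = 0.80, n = 3 each). Both genes of this pair passed the level rule through the wild type alone, so this p-value too is a description.

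**Figure D3:**
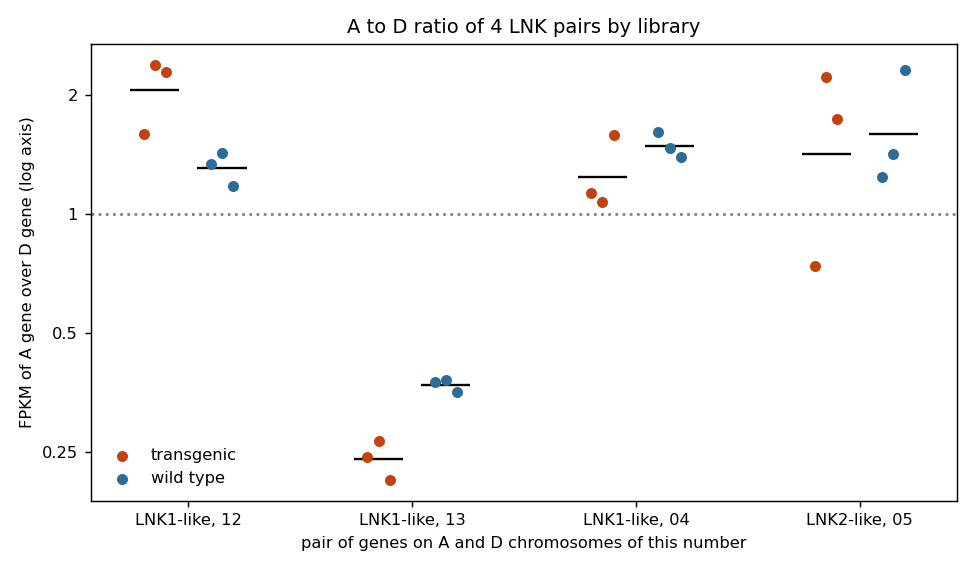
Ratio of the FPKM of the A gene to that of the D gene on a log axis for 4 LNK pairs, 3 transgenic libraries left of 3 wild-type libraries, with a bar at the geometric mean. The chromosome 12 pair is higher and the chromosome 13 pair lower in the transgenic libraries without overlap, and the other pairs overlap.

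The members also differed in how they varied among libraries of the same group. The 4 LNK1-like genes of chromosomes A04, D04, A13 and D13 were highest in wild type 2 and lowest in wild type 3, at a ratio of 1.53 to 1.94 between these libraries. They were also highest in transgenic 2 within their group, as were both LNK2-like genes. The A12 gene had the same order of wild-type libraries within a much narrower range. For the LNK1-like genes of chromosome 12 the ratio of wild type 2 to wild type 3 was 1.07 (A12) and 0.878 (D12), and for the LNK3-like gene it was 0.924. In the LNK2-like pair it was 0.665 on A05 and 1.08 on D05. The 2 LNK1-like genes of chromosome 12 had wild-type coefficients of variation of 3.38% and 6.65%, and the other 7 members 17.2% to 31.7%. These are descriptions of 3 libraries a group, with no test.

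**Figure D4:**
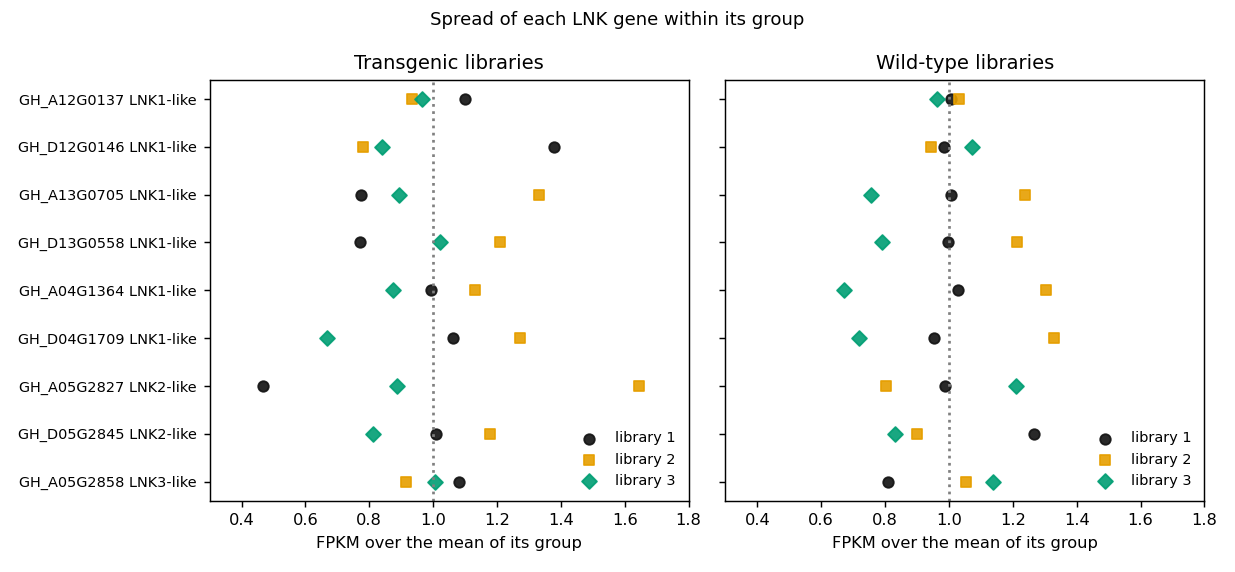
FPKM of each LNK gene divided by the mean of its own group, for the transgenic libraries (left) and the wild-type libraries (right), with a symbol for each library. In the wild type the LNK1-like genes of chromosomes 13 and 04 have library 2 highest and library 3 lowest, spread wider than the chromosome 12 genes.

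The MYB-like partners of LNK proteins were read next. Of 19 REVEILLE and LHY genes listed, 15 were tested, and 0 were called in either direction by limma. Of all genes tested, 1.78% were called lower and 3.92% higher. In a list of 15, a count of 0 is near these shares and is no result about the partners. An unadjusted p under 0.05 was found for 3, all of them lower in transgenic leaf. The median log2 fold change of the 15 was -0.090, with 9 below 0. All 3 LHY genes and both REVEILLE 8 genes were below 0, and all 3 REVEILLE 7 genes above 0. The largest change was in GH_D11G1089, LHY-like, with 1.70 ± 0.297 FPKM in transgenic and 3.96 ± 1.56 FPKM in wild-type leaf (SD, n = 3 each). Its log2 fold change of -0.84 had an adjusted p of 0.0906 in limma. Summed, the 15 genes stood at 183, 175 and 165 FPKM in transgenic leaf, against 180, 171 and 209 FPKM in the wild type. The ratio of the LNK sum to the partner sum was 0.137, 0.146 and 0.139 in the transgenic libraries and 0.474, 0.528 and 0.380 in the wild type. On the log2 scale the difference was -1.70, without overlap (exact two-sided permutation p = 0.10, the floor of the design, n = 3 each). The LNK genes were chosen with their lower level known, and the partner sums overlapped. The test therefore cannot add to that difference, and the ratio is a description.

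The most abundant partner, GH_A12G2750 (REVEILLE 6), had 39.9 ± 2.33 FPKM in transgenic and 40.4 ± 1.95 FPKM in wild-type leaf (SD, n = 3 each). GH_D11G0120, REVEILLE 6-like, had 21.0 ± 1.16 FPKM in transgenic and 28.9 ± 3.88 FPKM in wild-type leaf (SD, n = 3 each). Its log2 fold change of -0.44 had an adjusted p of 0.0780 in limma. Of the 4 REVEILLE 6 genes tested, 2 were below 0. REVEILLE 8 is the partner through which LNK proteins act on PRR5 in Arabidopsis. Its cotton relative GH_D09G1718 had 2.63 ± 0.137 FPKM in transgenic and 4.98 ± 1.09 FPKM in wild-type leaf (SD, n = 3 each). Its log2 fold change of -0.70 had an adjusted p of 0.0577 in limma. Median-of-ratios scaling brought a call (adjusted p = 0.0493) and so did the omission of wild type 2 (adjusted p = 0.0462), with adjusted p of 0.0462 to 0.181 over all alternatives. GH_D11G0986, REVEILLE 5-like, had a log2 fold change of 0.43 and was called only without wild type 3 (limma adjusted p = 0.0431, up to 0.455 in other alternatives).

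Pseudo-response regulators are repressors that follow each other through the day, and PRR5 and TOC1 (APRR1) are targets of REVEILLE 8 in Arabidopsis. Of 25 tested, 14 were called lower and 0 higher, beside 1.78% and 3.92% of all genes, with a median of -0.66 and 16 at an unadjusted p under 0.05. All 7 APRR5 genes were among the 14, with a median of -1.46, while 0 of 4 APRR1 genes was called by limma (1 at an unadjusted p under 0.05), with a median of 0.17. GH_D04G0005 (APRR5) had 22.1, 18.8 and 20.2 FPKM in transgenic leaf, against 57.2, 53.7 and 62.0 FPKM in wild-type leaf (log2 -1.46, limma adjusted p = 0.00170). Leaving out transgenic 2 or wild type 1 left 7 calls in this list, and leaving out transgenic 3 left 8.

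Among 38 tested genes of the evening complex and GIGANTEA, 5 were called lower and 3 higher, beside 1.78% and 3.92% of all genes, with a median of -0.11. The falls were in all 4 GIGANTEA genes, led by GH_A02G0676 (log2 -1.38, limma adjusted p = 0.00170), with GH_D02G0687 (-1.08), GH_D05G2485 (-0.64) and GH_A05G2464 (-0.55). The fifth was GH_D07G1080, like PCL1, which is another name of LUX (-0.77). Rises were in the EARLY FLOWERING 3-like genes GH_A07G0243 (0.79), GH_D07G0249 (0.48) and GH_A07G0242 (0.41), of which the last 2 were not called after either rescaling. None of 4 EARLY FLOWERING 4 genes was called by limma (2 at an unadjusted p under 0.05), with a median of -0.36. Without transgenic 2 or wild type 1 the list had 2 calls, and without transgenic 3 it had 3.

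Light input genes had 2 falls and 1 rise among 56 tested, numbers near the 1.78% and 3.92% of all genes, with a median of -0.070 and 11 at an unadjusted p under 0.05. Both falls were relatives of the blue-light receptor FKF1 (adagio protein 3), GH_A12G1715 (log2 -1.04) and GH_D12G1711 (-1.07). The rise was GH_A05G2264, cryptochrome-1-like (0.68, limma adjusted p = 0.0162). None of the 8 phytochrome A, B, C and E genes tested was called by limma (1 at an unadjusted p under 0.05), a count near these shares. In Arabidopsis LNK transcripts respond to phytochrome, whose protein and activity were not measured here. In a list of clock outputs, cyclic dof factors and TIME FOR COFFEE genes, 2 of 14 fell and 1 rose, beside the same shares of all genes. These were the cyclic dof factor 1-like genes GH_A12G1838 (-1.48) and GH_D12G1834 (-1.28), and GH_D08G2489, cyclic dof factor 2-like (0.93). Without transgenic 2 or wild type 1, limma called 1 light input gene and 0 clock outputs (3 at an unadjusted p under 0.05 in each case), and without transgenic 3 there was 1 clock output.

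LNK proteins also bear on flavonoid and phenylpropanoid synthesis in Arabidopsis. Of 42 tested genes of a list that runs from cinnamate 4-hydroxylase and chalcone synthase to dihydroflavonol reductase, flavonol synthase and leucoanthocyanidin dioxygenase, 21 were called higher and 1 lower, beside 3.92% and 1.78% of all genes, with a median log2 fold change of 1.23. The rise with the smallest adjusted p was GH_D13G0214, chalcone isomerase-like, at 24.9, 47.6 and 49.2 FPKM in transgenic and 7.14, 8.88 and 5.56 FPKM in wild-type leaf (log2 2.30, limma adjusted p = 0.00894). The fall was GH_D08G1216, a naringenin 3-dioxygenase (-0.89, limma adjusted p = 0.0151). Without transgenic 2 limma called none of the 42 (31 at an unadjusted p under 0.05), and without wild type 1 there were 3 calls and without transgenic 3 there were 13. The LNK genes of chromosome 12 and the LNK2-like pair were called under each of these omissions, and the other LNK genes under none of them. Pseudo-response regulators kept 7 or 8 calls.

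**Figure D5:**
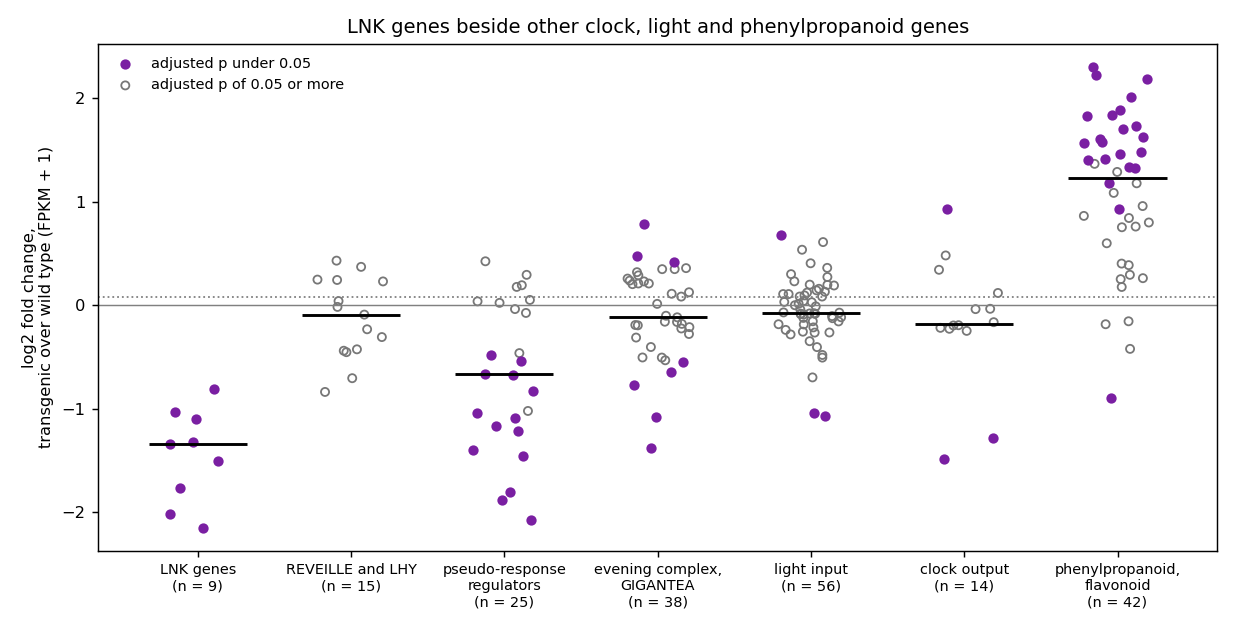
Log2 fold change of each tested gene, transgenic over wild type on the log2(FPKM + 1) scale, for the 9 LNK genes and 6 other lists, with bars at the medians and filled points for an adjusted p under 0.05. The solid line marks 0 and the dotted line the median of all tested genes, 0.080. LNK genes lie between -2.15 and -0.81, and REVEILLE and LHY genes between -0.84 and 0.43.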

How the data were processed

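Poly-A selected leaf RNA was sequenced, and the authors deposited 1 table of FPKM per gene and library, per the file headers. Aligner, counting program, genome build and annotation are not given in the sources used here. The deposited fold or ratio column and its log2 compare group means, and the authors' deposited p-value and q-value columns name no test. The value 1e-04, read as 0, stands for no expression estimated. FPKM was used as deposited, since no counts were analysed. The gene identifiers matched 0 of the entries in the RefSeq gene table, so names came from the deposited descriptions, and no sequences or coordinates were used.

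Levels were tested with limma 3.58.1 (R 4.3.3) on log2(FPKM + 1), with trend and robust estimation, two-sided, without covariates, for genes whose mean reached 1 FPKM in either group. The test was checked on simulated data. Shares and ratios were tested by exact permutation in Python 3.11.15. Lists were searched in the descriptions. Named were all LNK genes, the gene with the smallest adjusted p per list and direction, all genes of counts up to 5, and the 5 genes most like the LNK sum. GH_D09G1718, GH_D11G0986, GH_D11G1089, GH_A12G2750 and GH_D11G0120 were added after their values were seen. Members and lists were chosen with earlier results of these data known. Alternatives covered pseudocount, filter, scaling, variance model, replicate block and omission of each library.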

Additional observations from a re-analysis of the deposited data

How the results depend on the processing

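Over 14 alternatives, the 9 LNK genes kept their call in 101 of 126 combinations of gene and alternative, all refits of the same libraries. The direction was the same in all 126. Omission of a library could not turn it, since the groups overlap in none of the 9. The number called was 7 without a filter (lost were GH_D04G1709 and GH_A05G2858), 8 with the replicate block and 4 to 8 without 1 library (4 without transgenic 2, transgenic 3 or wild type 1, 5 without transgenic 1). When genes of the same name were summed, the LNK1-like sum was called. The LNK2-like sum and the LNK3-like gene, which has no other to be summed with, were called too. Both reach 1 FPKM in the wild type alone, so their calls are descriptions. The median of the 9 LNK genes was -1.78 with a pseudocount of 0.1, -1.55 with 0.5 and -1.53 to -1.20 without 1 library. Genes called in all numbered 1532 with the replicate block and 289 (without transgenic 2) to 2552 without 1 library, 803 without transgenic 3 and 420 without wild type 1. Without 1 library, calls ranged from 7 to 11 for pseudo-response regulators, 2 to 7 for the evening list, 1 to 3 for light input, 0 to 3 for clock outputs, 0 to 21 for phenylpropanoid genes and 0 to 1 for REVEILLE and LHY. The evening list had 5 calls with the replicate block, phenylpropanoid genes 14 without a filter, and REVEILLE and LHY 1 after median-of-ratios scaling. The A share differed by -0.414 to 0.374 percentage points without 1 library. Where a cause is not given, the cause was not tested.

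The labels do not say whether replicate numbers pair the libraries, and 3 libraries a group cannot settle it. Deviations of same-numbered libraries correlated at 0.0136, 0.0261 and 0.0740, and those of differently numbered libraries at -0.0840 to 0.0582. Not every library correlated best with its own number. With the replicate block GH_A05G2858 was not called (adjusted p = 0.0936, 0.0244 to 0.149 over its alternatives). The transgenic means of the LNK2-like and LNK3-like genes lie under 1 FPKM, and the read counts behind them are unknown.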

Other observations

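The LNK3-like gene has no namesake on the D subgenome. An uncharacterized gene of chromosome D05, GH_D05G2877, carries the same GO terms as GH_A05G2858 and, like it, directly follows a retinoblastoma-related protein-like gene in identifier order, but its description does not name LNK and it was not counted as a member. It stood at 1.46, 1.28 and 0.768 FPKM in transgenic leaf, against 1.88, 2.50 and 1.23 FPKM in the wild type. The groups overlapped, and the log2 fold change of -0.39 was not called (limma adjusted p = 0.353, 0.199 to 0.626 over its alternatives). GH_A13G0697, on the same chromosome as the LNK1-like gene GH_A13G0705 and with the GO terms of LNK1-like genes, was listed at 0 in 5 libraries and at 0.0204 FPKM in wild type 1.

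Genes next to the members in identifier order were read as well. Of 18 neighbours 13 were tested, with log2 fold changes of -0.60 to 0.25, and 1 was called, lower, beside 1.78% of all genes. That gene, GH_D05G2844, precedes the LNK2-like gene of D05 and is described as xylose isomerase-like. It stood at 63.6, 60.6 and 62.2 FPKM in transgenic leaf and at 104, 103 and 78.8 FPKM in wild-type leaf (limma adjusted p = 0.0435, 0.0167 to 0.160 over its alternatives). Its counterpart before the LNK2-like gene of A05, GH_A05G2826, stood at 76.9, 71.3 and 76.7 FPKM in transgenic leaf and at 101, 100.4 and 89.7 FPKM in wild-type leaf (log2 -0.37, limma adjusted p = 0.0752, 0.0435 to 0.240 over its alternatives). The groups overlapped in neither, as in 9.51% of all genes tested, which had lower transgenic values without overlap.

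The genes whose log2(FPKM + 1) correlated best with that of the LNK sum over the 6 libraries, which differ mainly by group, had Pearson r of 0.998 to 0.999. The first, GH_D02G0241, has no functional description. It was listed at 0 in the 3 transgenic libraries and at 110, 128 and 78.2 FPKM in the wild type. The others were GH_A13G1528 (a chloroplast DnaJ 11-like chaperone), GH_D10G2182 (ERI1 exoribonuclease 2-like), GH_D08G0674 (an F-box/kelch-repeat protein) and GH_A10G0391, which has no functional description. GH_A10G0391 stood at 15.8, 16.7 and 16.2 FPKM in transgenic leaf and at 33.1, 36.1 and 32.9 FPKM in wild-type leaf. In all, 465 genes had an r above 0.95.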
